A study of Mus musculus with 24 samples.

Results

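The genes followed here are 10 that mark undifferentiated spermatogonia, the stem and progenitor germ cells at the base of the seminiferous epithelium: *Zbtb16*, *Gfra1*, *Ret*, *Sall4*, *Id4*, *Nanos2*, *Nanos3*, *Lin28a*, *Etv5* and *Uchl1*. They were taken by gene symbol from the 24456 genes counted in each library, and all 10 were present. Transcripts were measured by RNA-seq in testes of wild-type (WT) pups and of pups homozygous for an *Atad2* knockout allele (*Atad2* KO), killed 20, 22, 24 or 26 days after birth. Each genotype had 4 libraries at days 20 and 22 and 2 libraries at days 24 and 26, which gave 24 libraries in 8 groups. In the KO allele a *lacZ* cassette is spliced to the early exons of *Atad2*, and a Cre recombinase expressed in all tissues under the *CMV* promoter has removed the *neo* cassette and one further exon, so every cell of the mouse carries the lesion and the fusion protein is non-functional. A library name such as WT_d20_2 joins the genotype, the day and the number of the replicate. The study describes the replicates as biological, but the labels do not tie libraries to animals, so the p-values measure the spread between these libraries.

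Spermatogonial stem cells divide either to renew themselves or to enter differentiation. Sertoli cells secrete GDNF, which binds the co-receptor GFRA1 and signals through the tyrosine kinase RET, and ETV5 is among the transcription factors that this signal and FGF signals sustain. ZBTB16 (PLZF), SALL4 and ID4 are nuclear regulators of the undifferentiated state, NANOS2, NANOS3 and LIN28A are RNA-binding proteins, and UCHL1 is a deubiquitinating enzyme abundant in spermatogonia. In the first wave of spermatogenesis the testis is filled in turn by spermatocytes, round spermatids and elongating spermatids, so that spermatogonia come to be a smaller part of the organ. In whole-testis RNA, fewer cells of a type and less RNA per cell cannot be told apart.

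The promoters of 3 members are shown because these members stood on different sides of the age comparison below: *Lin28a* fell with age in both genotypes, *Uchl1* fell in WT testes and *Id4* fell in neither. Each line gives the 200 bases from 250 to 51 bases before the RefSeq transcription start (GRCm38.p6), read 5′ to 3′ on the strand of the gene, with every GC box (GGGCGG, or CCGCCC on the other strand) in capitals. The *Lin28a* window is chr4:134018867-134019066 on the minus strand, the *Uchl1* window is chr5:66675871-66676070 on the plus strand and the *Id4* window is chr13:48260866-48261065 on the plus strand.
Lin28a: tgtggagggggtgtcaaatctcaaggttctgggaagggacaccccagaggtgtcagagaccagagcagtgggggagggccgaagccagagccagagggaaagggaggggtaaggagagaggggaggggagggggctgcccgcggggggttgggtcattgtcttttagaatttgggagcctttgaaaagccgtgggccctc
Uchl1: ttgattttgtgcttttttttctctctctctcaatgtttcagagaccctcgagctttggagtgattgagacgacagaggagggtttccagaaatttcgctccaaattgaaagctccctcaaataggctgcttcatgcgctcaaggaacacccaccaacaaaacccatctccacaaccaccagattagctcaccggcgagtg
Id4: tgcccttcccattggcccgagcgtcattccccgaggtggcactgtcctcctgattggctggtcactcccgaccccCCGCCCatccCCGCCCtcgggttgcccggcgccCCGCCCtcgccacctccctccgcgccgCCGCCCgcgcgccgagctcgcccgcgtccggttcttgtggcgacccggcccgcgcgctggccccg
The *Id4* window held 4 GC boxes and 29 CpG dinucleotides at a GC content of 77.5%. The *Lin28a* window held 0 GC boxes and 4 CpG at 61.5% GC, and the *Uchl1* window 0 GC boxes and 6 CpG at 47% GC. Among all 32851 RefSeq windows of the same length, 24.6% held a GC box and the median GC content was 51.5%. A window was found for 7 of the 10 members. Of the other members, the *Gfra1* window, of a gene called in neither genotype, held 0, the *Nanos3* window, of a gene that fell in the WT, held 1, the *Nanos2* window held 0, and the 2 windows of *Etv5*, also called in neither, held 2 and 0, and nothing is read from these counts.

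The targeted gene was measured first. *Atad2* stood at 30.8, 37.1, 36.0 and 32.2 CPM, counts scaled to the size of the library, in the 4 day 20 KO libraries and at 92.7, 171, 76.4 and 94.0 CPM in the 4 WT libraries. The KO libraries lay below all WT libraries at each of the 4 days, and the log2 difference averaged over the days was -1.37 ± 0.112 (SE, edgeR adjusted p = 1.232e-07). The KO allele keeps the early exons, which can still be counted. At day 26 alone the difference of -1.25 did not pass (adjusted p = 0.0628). Libraries held 10709667 to 19491935 counted read pairs, so that 3 counts corresponded to between 0.153 and 0.316 CPM. WT_d20_2 was the shallowest library and stood apart from the other libraries, with 13.7% of read pairs not uniquely placed and 3.26% of counts on mitochondrial ribosomal RNA, each the highest of the 24. Somatic cells were present: the 12 Sertoli cell markers together gave between 1202 and 2636 CPM in a library. Epididymal markers (*Crisp1*, *Adam7*, *Lcn5*, *Defb20*) summed to between 0 and 716 CPM, and at day 26 to 0.521 and 545 CPM in the WT pair and to 0.344 and 128 CPM in the KO pair, and their part in the results was not tested. *Etv5* and *Id4* are also made by Sertoli cells, and *Ret* and *Uchl1* by nerves, whose 6 markers summed to between 21.7 and 48.4 CPM.

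The members differed widely in level. Per kilobase of merged exon, on the scale of CPM per kilobase, *Uchl1* was the highest in every group, at 29.8 in the WT and 22.2 in the KO at day 20. *Id4* and *Etv5* followed, at 8.52 and 8.18 in WT day 20 testes, where their library ranges overlapped, and *Id4* lay above *Etv5* with no overlap in both genotypes at days 22 and 24. *Zbtb16* came next at 5.0, then *Sall4* at 3.22 and *Lin28a* at 2.99, whose ranges overlapped in 7 of the 8 groups. *Nanos3*, *Gfra1* and *Ret* formed the lowest measured group at 1.19, 0.881 and 0.722 in WT day 20 testes, where *Gfra1* overlapped with each of the others but *Nanos3* and *Ret* did not overlap. *Nanos2*, which marks the most primitive spermatogonia, gave 28 counts over all 24 libraries and no more than 4 in any one, was at or under 3 counts in every library of 7 groups, and did not pass the filter on low counts. The other 9 members were tested.

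**Figure D1:**
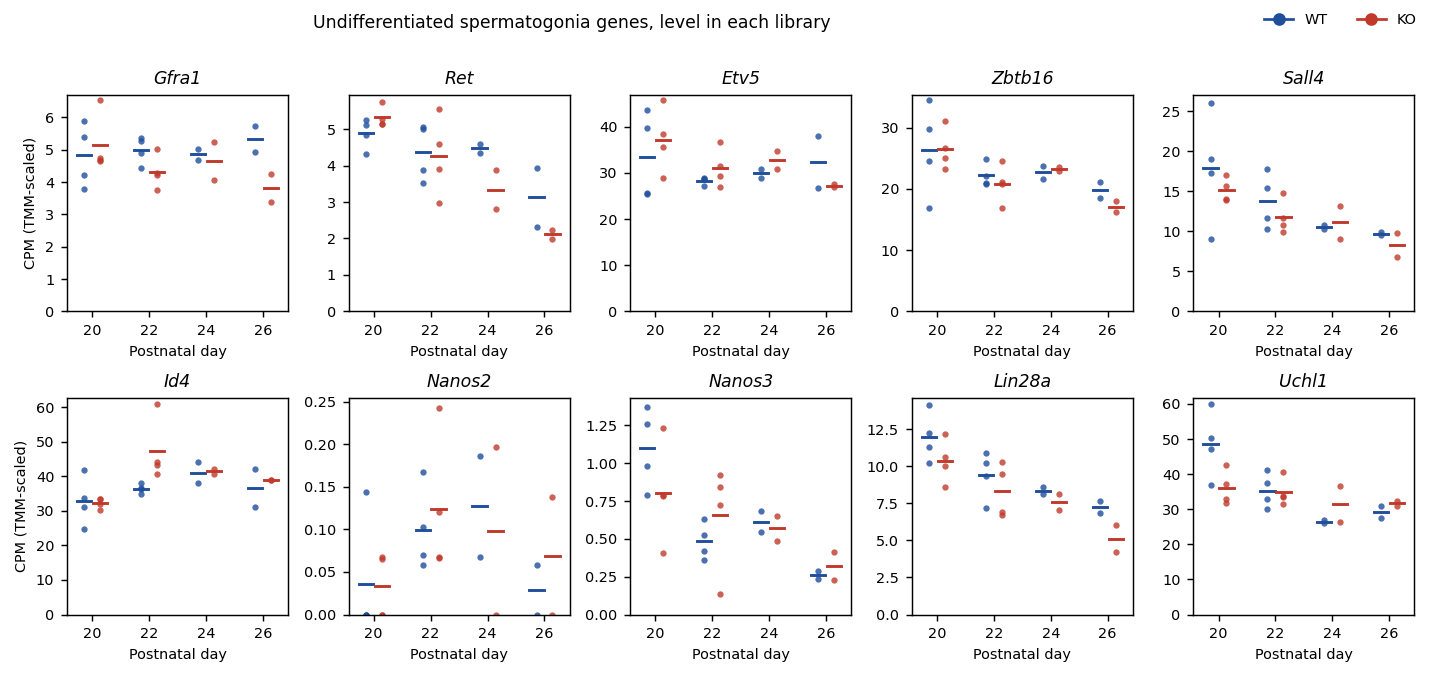
Level of each of the 10 members in CPM against postnatal day, with WT libraries in blue and KO libraries in red, each point a library and each bar the mean of a group. Both genotypes overlap for most members and days, whereas for *Ret* and *Lin28a* the day 26 libraries lie below every day 20 library in both genotypes.

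The first question was whether loss of ATAD2 changed these transcripts. No member passed the test in any genotype comparison (edgeR quasi-likelihood test, adjusted p under 0.05 over 17170 genes). Of the 9 tested, 0 were called at day 20, where 3.34% of all genes were called, 0 at day 22 (2.51% of all genes), 0 at day 24 (0.0874%), 0 at day 26 (0.0466%) and 0 in the mean of the 4 days (7.08%). The median log2 difference between KO and WT over the 9 was -0.07 in the mean of the days, against 0.01 for all genes. At an unadjusted p under 0.05, *Uchl1* was lower at day 20, *Id4* higher at day 22 and *Lin28a* lower in the mean of the days, 1 of the 9 in each case, where 2141, 2505 and 3982 of the 17170 genes lay under that threshold, so that these show little about the members. DESeq2 also called 0 of the members in each of these comparisons.

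Among the GDNF receptor genes, the KO and WT libraries of *Gfra1* and *Ret* overlapped at days 20 and 22. Both genes had lower values in KO testes at day 26, where neither difference passed the test. *Gfra1* (chr19:58235604-58455909, mm10, minus strand) stood at 3.37 and 4.25 CPM in the KO and 4.92 and 5.74 CPM in the WT at day 26. The log2 difference there was -0.48 ± 0.239 (SE, adjusted p = 0.448), and -0.16 ± 0.103 in the mean of the days (adjusted p = 0.374). The KO pair lay below the WT pair, as for 31.1% of all genes at that day.
*Ret* (chr6:118151745-118197718, minus strand) was 3.87 and 2.81 CPM in the KO against 4.59 and 4.35 CPM in the WT at day 24, and 2.0 and 2.24 CPM against 2.32 and 3.95 CPM at day 26. The KO libraries lay below the WT libraries on both days, with log2 differences of -0.42 ± 0.278 (adjusted p = 1) and -0.55 ± 0.290 (adjusted p = 0.480). The mean of the days was -0.22, with a 95% interval from -0.47 to 0.03. That mean was -0.30 without WT_d26_1 and -0.12 without WT_d26_2. *Etv5* (chr16:22381309-22439719, minus strand), downstream of the receptors, gave 30.9 and 34.9 CPM in the KO against 28.9 and 30.9 CPM in the WT at day 24, without overlap (log2 difference 0.14 ± 0.238, adjusted p = 1). Its mean over the days was 0.04, with an interval from -0.17 to 0.26.

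Of the nuclear regulators, *Zbtb16* (chr9:48654297-48836222, minus strand) gave 16.2 and 18.0 CPM in the KO and 18.5 and 21.1 CPM in the WT at day 26, groups that did not overlap (log2 difference -0.21 ± 0.230, adjusted p = 0.766). Over the days its difference was -0.07, with an interval from -0.27 to 0.14. *Sall4* (chr2:168748332-168767943, minus strand) overlapped between the genotypes at all 4 days and had a mean difference of -0.16, with an interval from -0.46 to 0.14. Over the fits that left out 1 library that difference ranged from -0.23 to -0.08, the latter without WT_d20_3. *Id4* (chr13:48261228-48266026, plus strand), an inhibitor of basic helix-loop-helix factors, gave 43.3, 44.1, 40.6 and 60.8 CPM in the KO and 37.9, 35.0, 36.2 and 36.6 CPM in the WT at day 22. All 4 KO libraries lay above all 4 WT libraries, as for 3.64% of genes at that day. The log2 difference was 0.37 ± 0.141 (SE, adjusted p = 0.182 by edgeR), and at the other days the groups overlapped. Its mean over the days was 0.11, with an interval from -0.07 to 0.29 (adjusted p = 0.489).

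Of the RNA-binding factors, *Lin28a* (chr4:134003330-134018841, minus strand), which blocks let-7 maturation, had a lower mean in the KO at each of the 4 days. It stood at 10.6, 12.2, 8.59 and 10.0 CPM in the KO and 10.2, 12.2, 14.1 and 11.3 CPM in the WT at day 20, which overlapped. At day 24 the KO pair was 7.05 and 8.11 CPM and the WT pair 8.56 and 8.15 CPM (log2 difference -0.14 ± 0.243, adjusted p = 1), and at day 26 they were 6.06 and 4.19 against 6.84 and 7.68 CPM (log2 difference -0.50 ± 0.248, adjusted p = 0.443). The KO pair lay below the WT pair on both of these days. Averaged over the days the log2 difference was -0.26 ± 0.106 (SE, adjusted p = 0.141 by edgeR), a fold of 0.836 with a 95% interval from 0.718 to 0.974. *Nanos3* (chr8:84173731-84185217, minus strand), which protects germ cells from loss, rested on 2 to 17 counts a library and gave a mean difference of 0.05 with an interval from -0.50 to 0.60, too wide to show a change of this size.

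*Uchl1* (chr5:66676091-66687234, plus strand) gave 37.1, 42.7, 33.0 and 31.8 CPM in the KO and 47.1, 36.9, 60.0 and 50.3 CPM in the WT at day 20. The 2 groups overlapped through WT_d20_2, the lowest WT library. The log2 difference was -0.43 ± 0.145 (SE, adjusted p = 0.140 by edgeR). Without WT_d20_2 it was -0.56 ± 0.135 and passed the test (adjusted p = 0.0444), the single call gained for a member at a single day in any setting tried. At day 26 the order was the other way, with 32.4 and 30.9 CPM in the KO and 30.8 and 27.5 CPM in the WT (log2 difference 0.12 ± 0.206, adjusted p = 0.874). The mean over the days was -0.0197, with an interval from -0.20 to 0.17 (adjusted p = 0.932). Whether the KO effect on *Uchl1* differed between days did not pass (adjusted p = 0.542 by edgeR), and of all genes 0.00582% were called in that test, none of them a member.

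In counts of groups that did not overlap, KO and WT were apart for 0 of the 9 members at day 20, as for 4.71% of all genes. They were apart for 1 member at day 22 (8.09%), for 3 at day 24 (44%) and for 5 at day 26 (59%). With 2 libraries a group, groups that do not overlap were thus common among all genes at the later days. At day 24 the KO was below the WT for *Ret* and *Lin28a* (21.4% of all genes) and above it for *Etv5* (22.6%). At day 26 it was below for *Zbtb16*, *Gfra1*, *Ret* and *Lin28a* (31.1%) and above for *Uchl1* (27.8%).

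Markers of later germ cells were compared between the genotypes. A stage score, the mean centred log2 CPM of 6 round spermatid markers minus that of 6 pachytene spermatocyte markers, was -0.94 ± 1.20 (SD, n = 4) in the KO and -2.92 ± 0.656 (SD, n = 4) in the WT at day 20, 0.61 ± 0.650 (SD, n = 4) and -0.29 ± 0.216 (SD, n = 4) at day 22, 1.49 ± 0.0942 (SD, n = 2) and 1.51 ± 0.224 (SD, n = 2) at day 24, and 1.91 ± 0.0419 (SD, n = 2) and 2.18 ± 0.0501 (SD, n = 2) at day 26. The score was not tested. Its ranges overlapped at days 20 and 24, the KO lay above the WT without overlap at day 22, and it lay below the WT without overlap at day 26. Of the 6 round spermatid markers, 5 were called higher in the KO at day 20 and 3 in the mean of the days. All 4 elongating spermatid markers (*Prm1*, *Prm2*, *Tnp1* and *Tnp2*, which encode proteins that replace histones) were called higher in the KO at day 22, with a median log2 difference of 4.76, and in the mean of the days, with a median of 2.81, and 0 were called at days 20, 24 and 26. These counts of spermatid markers were not recomputed under other settings. In the mean of the days, 2 of 5 peritubular markers (*Acta2* and *Myh11*) were called lower in the KO. So were 2 of 5 endothelial markers (*Pecam1* and *Cdh5*), and 1 of 6 Leydig cell markers (*Insl3*) was called higher. Of all genes, 3.56% were called lower and 3.52% higher there. All 6 Leydig markers had positive differences at day 20 (median 0.92) and negative differences at day 26 (median -0.59). The part of these shifts in the members' values was not tested. A fit with the stage score as covariate called no member, but neither did the main fit, so it cannot show that part.

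The second comparison was between ages. In WT testes 5 of the 9 members fell between day 20 and day 26 and 0 rose, where 42.5% of all genes were called, 18.1% lower and 24.4% higher. In KO testes 4 of the 9 fell and 0 rose, where 52.2% of all genes were called, 24.9% lower and 27.2% higher. The median log2 difference was -0.65 over the members in the WT and -0.63 in the KO, against -0.04 and -0.07 over all genes. *Ret*, *Sall4* and *Lin28a* fell in both genotypes, *Nanos3* and *Uchl1* passed in the WT and *Zbtb16* in the KO. The day 26 libraries lay below all day 20 libraries for 4 members in the WT and above for 0, where the 2 ages were apart for 50.4% of all genes, 22.5% below and 27.9% above. In the KO they lay below for 6 and above for 1, where 70% of all genes were apart, 35.9% below and 34.1% above.

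*Ret* went from 5.11, 4.84, 5.26 and 4.32 CPM at day 20 to 2.32 and 3.95 CPM at day 26 in the WT, a log2 difference of -0.65 ± 0.247 (adjusted p = 0.0388). In the KO it went from 5.15, 5.75, 5.28 and 5.15 CPM to 2.0 and 2.24 CPM (log2 difference -1.33 ± 0.257, adjusted p = 0.000266). Both day 26 pairs lay below every day 20 library. The WT call was close to the threshold. It was lost with DESeq2 (adjusted p = 0.0514) and, by edgeR, with relative log expression scaling (adjusted p = 0.0548). The edgeR call was also lost without the filter on low counts (adjusted p = 0.0620) and with the 2 groups fitted alone (adjusted p = 0.164). With a block for the replicate number it was lost too (edgeR adjusted p = 0.0719). Without WT_d26_1 the difference was -0.32. *Gfra1*, which encodes the ligand-binding partner of RET, had values of 0.15 ± 0.205 in the WT (adjusted p = 0.579) and -0.43 ± 0.210 in the KO (adjusted p = 0.0892). *Etv5* had values of -0.05 ± 0.206 (adjusted p = 0.854) and -0.45 ± 0.210 (adjusted p = 0.0775).

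*Sall4* went from 17.3, 9.06, 26.1 and 19.0 CPM to 9.50 and 9.90 CPM in the WT (log2 difference -0.89 ± 0.297, adjusted p = 0.0202). The groups overlapped through WT_d20_2, which gave the value of 9.06 CPM. In the KO it went from 14.0, 17.1, 15.6 and 13.9 CPM to 9.78 and 6.77 CPM, without overlap (log2 difference -0.88 ± 0.299, adjusted p = 0.0185). *Zbtb16* went from 24.5, 16.9, 34.5 and 29.7 CPM to 18.5 and 21.1 CPM in the WT, where WT_d20_2 was again the lowest and the difference of -0.42 ± 0.201 did not pass (adjusted p = 0.0962). Without that library it was -0.63 (adjusted p = 0.00373). In the KO it went from 23.2, 25.04, 26.8 and 31.0 CPM to 16.2 and 18.0 CPM (log2 difference -0.63 ± 0.203, adjusted p = 0.0131). *Id4* stood apart from both, with values of 0.16 ± 0.172 in the WT (adjusted p = 0.478) and 0.27 ± 0.171 in the KO (adjusted p = 0.191), and in the KO both day 26 libraries, at 38.8 CPM each, lay above the day 20 range of 30.2 to 33.3 CPM.

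*Lin28a* went from 10.2, 12.2, 14.1 and 11.3 CPM to 6.84 and 7.68 CPM in the WT (log2 difference -0.72 ± 0.215, adjusted p = 0.0102), and its mean was lower at each later day in both genotypes. In the KO it reached 6.06 and 4.19 CPM (log2 difference -1.02 ± 0.221, adjusted p = 0.000766). Neither day 26 pair overlapped its day 20 group. *Nanos3* went from 16, 13, 17 and 11 counts to 4 and 4 counts in the WT, or from 1.10 ± 0.262 CPM (SD, n = 4) to 0.259 ± 0.0391 CPM (SD, n = 2), a log2 difference of -2.04 ± 0.572 (adjusted p = 0.00676 by edgeR). In the KO it went from 17, 12, 12 and 6 counts to 6 and 4 counts, and the difference of -1.32 ± 0.555 did not pass (adjusted p = 0.0516), though it passed under scaling by total counts (-1.50, adjusted p = 0.0223) and without KO_d20_4, KO_d22_4 or WT_d20_2.

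*Uchl1* went from 47.1, 36.9, 60.0 and 50.3 CPM to 30.8 and 27.5 CPM in the WT (log2 difference -0.74 ± 0.183, adjusted p = 0.00276). In the KO it went from 37.1, 42.7, 33.0 and 31.8 CPM to 32.4 and 30.9 CPM (log2 difference -0.19 ± 0.179, adjusted p = 0.379). The test of the difference between these age effects gave 0.55 ± 0.252 (adjusted p = 0.437 by edgeR), and 0 of the 9 members, as 0% of all 17170 genes, were called in it. The genotypes are thus not shown to differ in the age effect for any member, including those called in one genotype alone.

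**Figure D2:**
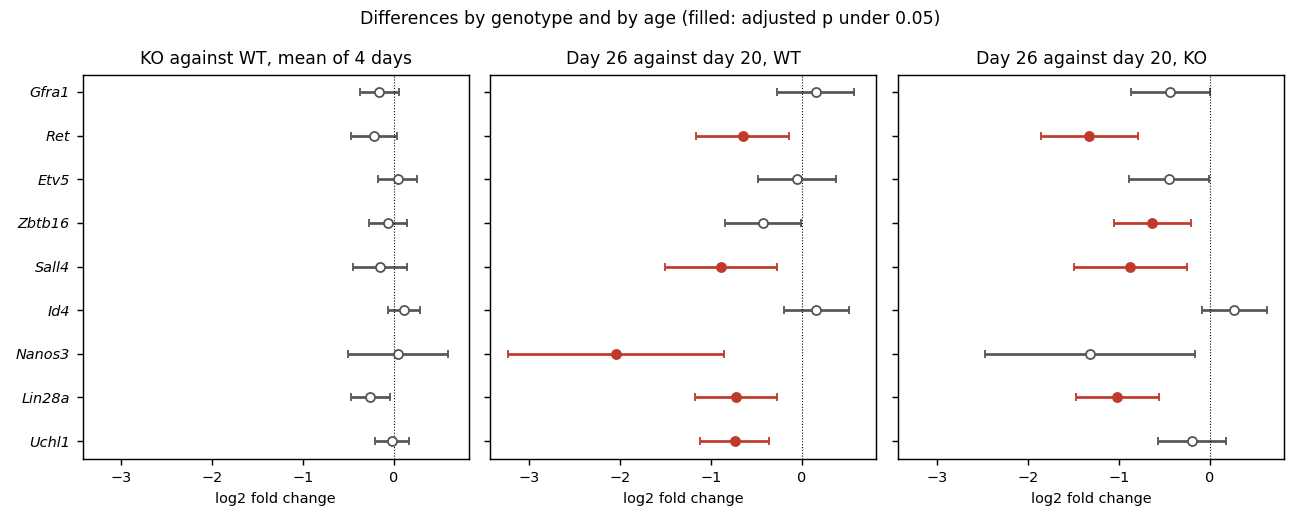
Log2 fold change of the 9 tested members for KO against WT in the mean of the 4 days, and for day 26 against day 20 in WT and in KO, with bars for the 95% interval and filled red points where the adjusted p was under 0.05. The genotype panel holds 0 filled points, the WT age panel 5 and the KO age panel 4, all to the left of 0.

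These counts rested in part on the fit and on single libraries of day 26. With the 2 ages fitted alone, *Nanos3* was the 1 member called in the WT, and *Sall4* (adjusted p = 0.134 by edgeR), *Lin28a* (0.0661) and *Uchl1* (0.0659) did not pass. Without WT_d26_1, which leaves 1 WT library at that day assumed to vary like the others, 1 member was called in the WT (*Uchl1*). Without WT_d26_2 or WT_d20_3, 3 were called. In the KO, 2 were called without KO_d26_2 (*Ret* and *Lin28a*). Without WT_d20_2, 6 were called in each genotype.

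Because later germ cells enlarge the pool of RNA, the members were also set against the Sertoli cell list, whose cells have largely stopped dividing by these ages. Of the 12 Sertoli markers, 7 fell in the WT and 9 in the KO between day 20 and day 26, with medians of -0.58 and -0.71. Relative to the mean of that list, on the log2 scale, the change from day 20 to day 26 was -0.19 as a median over the 9 members in the WT and -0.11 in the KO, with no test. *Nanos3* and *Uchl1* stood lower at day 26 in the WT (-1.16 and -0.25), as did *Ret* and *Lin28a* in the KO (-0.77 and -0.49), all without overlap between days. On this scale the day 26 libraries lay below the day 20 libraries for 2.98% of all genes in the WT and 9.16% in the KO, and above them for 45.8% and 55%. *Id4* stood higher relative to the list in both, by 0.64 in the WT and 0.79 in the KO, where its days did not overlap. *Gfra1* stood higher by 0.63 in the WT and 0.10 in the KO, and *Etv5* by 0.44 and 0.09. *Uchl1* stood higher by 0.33 in the KO, unlike in the WT. The days overlapped for *Gfra1* and *Etv5* in both genotypes and for *Uchl1* in the KO. The WT median was 0.27 without WT_d26_1, and the KO median was 0.02 without KO_d26_1 and 0.27 against the peritubular list, so that neither sign is settled.

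**Figure D3:**
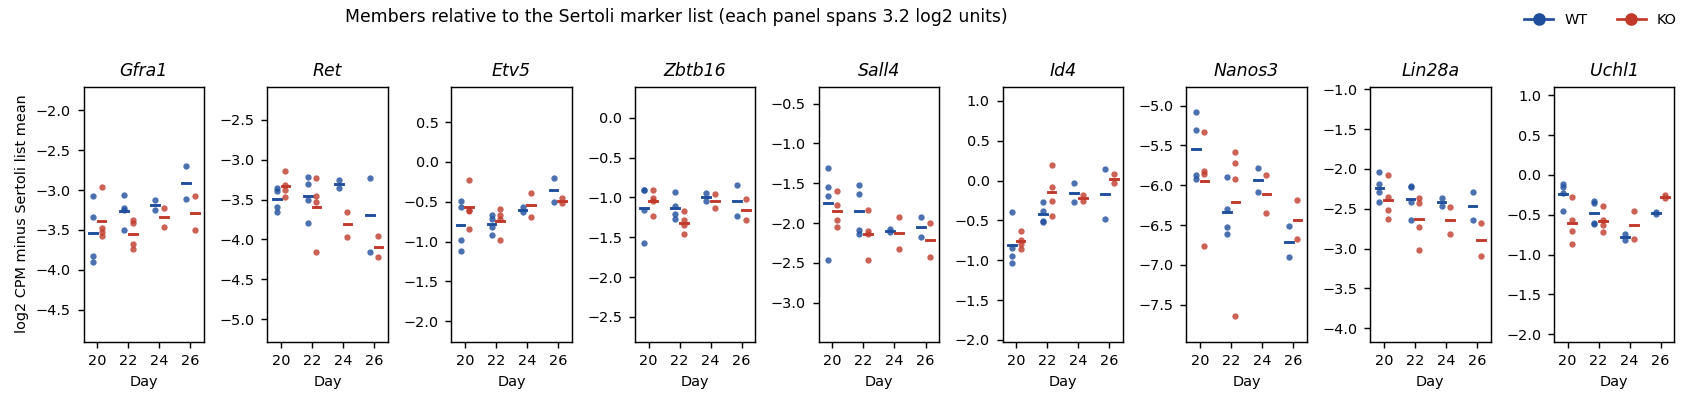
Log2 CPM of each tested member minus the mean log2 CPM of 12 Sertoli cell markers, by postnatal day, with WT in blue, KO in red, points for libraries and bars for group means. *Id4* lies higher at day 26 than at day 20 without overlap in the KO, *Nanos3* lies lower without overlap in the WT, and the days overlap for *Zbtb16* and *Sall4* in both genotypes.

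Other genes of the undifferentiated state were compared between ages. Of 28 tested of a list of 30, 10 fell and 1 rose in the WT, and 15 fell and 3 rose in the KO, with medians of -0.59 and -0.83. Of all genes, 18.1% fell and 24.4% rose in the WT, and 24.9% fell and 27.2% rose in the KO, shares against which this list and the lists after it can be read. Those that fell in both included *Foxo1*, a nuclear effector of stem cell maintenance (-0.73 and -0.93), *Taf4b* (-1.11 and -0.80), *Glis3* (-0.75 and -0.75) and the adhesion molecule *Mcam* (-1.05 and -1.07). *Tspan8*, a surface tetraspanin, rose in both (1.48 and 1.87). The WT count of 11 was 5 without WT_d26_1, 6 without WT_d26_2 and 5 with the 2 groups fitted alone, and the KO count of 18 was 10 without KO_d26_2.

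Of 21 tested niche signalling genes, out of 22, 5 fell and 3 rose in the WT and 10 fell and 3 rose in the KO with age, so that the WT counts show little about the list beside the 18.1% and 24.4% of all genes. *Gdnf*, the ligand of the GFRA1 and RET complex, fell by 0.93 on the log2 scale in the WT and by 1.41 in the KO, and *Mycn*, a proliferation factor, fell by 0.90 and 1.20. *Gfra2*, the neurturin receptor, rose by 2.19 and 2.44, and *Egr3* rose by 5.15 and 3.60. The WT count of 8 was 5 without WT_d26_1, 4 without WT_d26_2 and 3 with the 2 groups fitted alone, and the KO count of 13 was 8 without KO_d26_2. Of 15 tested partners and paralogs of the members, out of 16, 5 fell and 1 rose in the WT and 10 fell and 2 rose in the KO. *Id2* (-0.81 and -1.41) and *Nanos1* (-0.68 and -0.93) fell in both, and *Id1* (-1.18) and *Id3* (-1.19) in the KO, whereas *Sall3* rose in both (1.17 and 1.91). The WT count of 6 was 2 without WT_d26_1, 3 without WT_d26_2 and 0 with the 2 groups fitted alone.

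Differentiating spermatogonia, the next cells of the lineage, were followed by 8 markers. In the WT 7 fell with age and 1 rose, where 18.1% and 24.4% of all genes did, among them the receptor *Kit* (-0.66), the retinoic acid target *Stra8* (-1.14) and *Sohlh1* (-0.93), with *Dmrtb1* higher (1.57). In the KO 4 fell, *Kit* by 0.91, and *Dmrtb1* rose by 1.72, where 24.9% and 27.2% of all genes fell and rose. None of the 8 was called between genotypes in the mean of the 4 days. These counts, and those of the Sertoli and other somatic lists, were not recomputed under other settings.

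**Figure D4:**
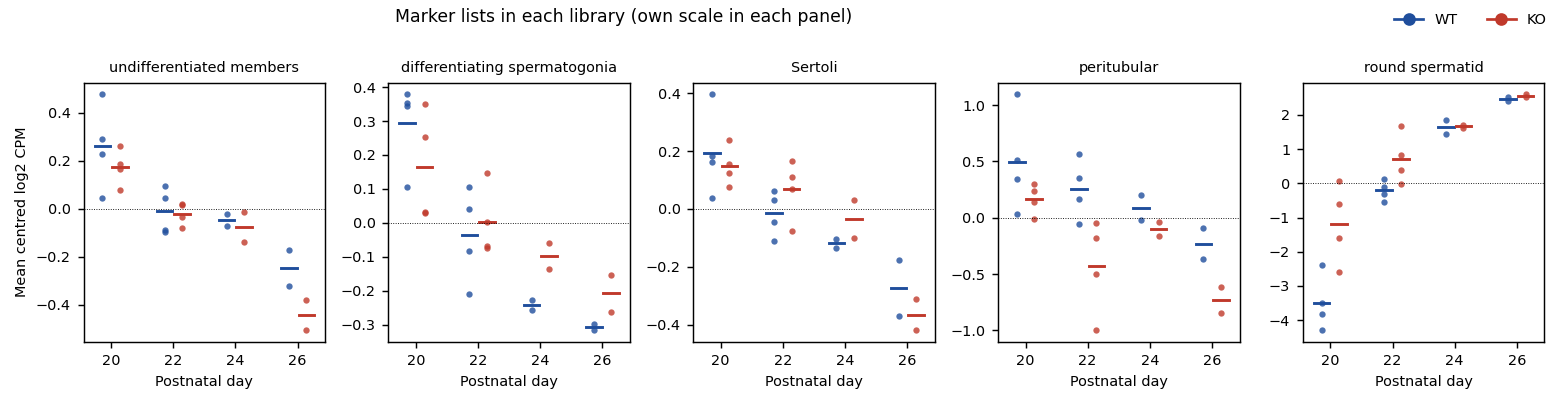
Mean centred log2 CPM of the tested members and of 4 marker lists in each library against postnatal day, WT in blue and KO in red, with bars for group means and an own vertical scale in each panel. The members, the differentiating spermatogonia and the Sertoli and peritubular lists lie lower at day 26 than at day 20, and the round spermatid list lies higher.

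Between genotypes, in the mean of the 4 days, 4 of the 28 other undifferentiated spermatogonia genes were lower in the KO and 0 higher, where 3.56% of all genes were called lower and 3.52% higher. They were *Mcam* (-0.36 ± 0.0727, adjusted p = 0.00639), *Epcam* (-0.35 ± 0.0842, adjusted p = 0.0205), *Glis3* (-0.28 ± 0.0719, adjusted p = 0.0249) and *Foxo1* (-0.21 ± 0.0623, adjusted p = 0.0430). The sign was negative for 21 of the 28 and the median was -0.21. *Mcam* is also made by vascular cells, and peritubular and endothelial markers were lower in the same comparison (medians -0.45 and -0.42). Their part in the *Mcam* call was not tested. The count fell to 0 without WT_d24_2 and to 0 with the stage score as covariate, was 2 without the filter on low counts (*Mcam* and *Epcam*) and 7 with DESeq2, all lower, and ranged from 0 to 8 over the fits that left out 1 library. Of the niche genes, *Wnt5a* was lower in the KO (-0.55 ± 0.0936, adjusted p = 0.00154) and *Egr3* higher (1.02 ± 0.227, adjusted p = 0.0146). Without WT_d24_2 or with the stage score *Wnt5a* alone was called. Of the partners, *Zbtb32*, a relative of *Zbtb16*, was higher (0.25 ± 0.0701, adjusted p = 0.0359), a call lost in 9 of the 24 fits that left out 1 library and with the stage score as covariate. At single days, *Mcam* was lower at day 20 (-0.45) and *Thy1* (-1.58) and *Wnt5a* (-0.63) were lower and *Egr3* higher (1.57) at day 22, days at which 3.34% and 2.51% of all genes were called. The *Mcam* call was lost without the filter on low counts, under scaling by total counts, with the day fitted alone, with the stage score and in 8 of the 24 fits that left out 1 library. The *Thy1* call was lost in the same 4 settings, with the replicate block and in 12 of the 24 fits that left out 1 library. The *Wnt5a* and *Egr3* calls were both lost with the day fitted alone, with the stage score and without KO_d22_2, WT_d22_2, WT_d22_3 or WT_d22_4, and *Egr3* alone was called without the filter or with the block. Other settings added calls. *Egr3* was higher at day 20 with DESeq2, with the block and under scaling by total counts. *Wnt5a* was lower at day 26 with DESeq2, under scaling by total counts and with the stage score. DESeq2 also called *Glis3* lower at day 20 and *Zbtb32* higher at day 26. In the mean of the days it called 4 niche genes, 2 higher and 2 lower, with *Gfra2* and *Fgfr1* added. With day 26 fitted alone, where 2104 of all genes were called, so were 5 other undifferentiated spermatogonia genes (*Foxo1*, *Itga6*, *Adgra3*, *Mcam* and *Nedd4*, all lower), 6 niche genes, 5 of them lower, and 3 partners, 1 of them lower.

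The genes outside the set whose course over the 24 libraries was closest to the members' mean course were *Rnf144a*, *Map4k4*, *Srsf2*, *Ubr2*, *Ptpn13*, *Zmynd11*, *Ubtf*, *Vezf1*, *Tanc2* and *Kdm5c*, among 14025 genes with a mean log2 CPM of at least 1. Their root mean square difference from it was 0.0929 (*Rnf144a*) to 0.103 (*Kdm5c*) log2 units, against a median of 0.330 over all candidates. The members themselves lay farther from the mean of the other members, from 0.197 for *Zbtb16* and 0.224 for *Uchl1* to 0.604 for *Nanos3*. The named genes had mean levels of 47.3 to 183 CPM, and the tested members 0.654 to 37.9 CPM. A gene at the same level in all libraries would lie at 0.2135 from the members' mean course. All points share the depth and composition of the 24 libraries.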

How the data were processed

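Testis RNA-seq libraries were stranded and ribosome-depleted, and sequenced as paired ends. The deposited values are raw read-pair counts per gene, which the authors made with STAR 2.7.11b (genome build mm10) and HTSeq, using strand and uniquely placed pairs. Counting by strand separates a gene from its antisense partners, which overlap exons of 6 members. The 5 tally rows of each file were left out, of which pairs outside exons were 45.1 to 58.5% and pairs not unique 4.74 to 13.7%. Counts were scaled by TMM, filtered by filterByExpr (minimum count 10), and fitted with the edgeR 4.0.16 quasi-likelihood test (R 4.3.3, limma 3.58.1) with 1 coefficient for each of the 8 groups over all 24 libraries, and p-values were adjusted by Benjamini-Hochberg over 17170 genes. Log2 CPM used a prior count of 2. Intervals are 95% intervals of the fit. Alternatives were DESeq2 1.42.0, relative log expression and total count scaling, no filter, fits to fewer groups, a replicate block, the stage score as covariate and leaving out each library. The steps were tested on simulated data. The 9 tested members were named with their values in the mean of the days and between ages, and at single days where called or where groups did not overlap. The members and gene lists were chosen with earlier results of these data known. Gene positions are from GENCODE M21 and promoters from RefSeq GRCm38.p6. The sample labels mention germ cell fractionation, the study describes whole testes, and it gives fewer day 20 replicates than the labels, all of which were used.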

Additional observations from a re-analysis of the deposited data

Results flagged for a closer look

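*Gfra1* in KO_d20_2 stood at 6.54 CPM, apart from the other 3 KO libraries of day 20, which lay between 4.64 and 4.74 CPM. The gap took 0.948 of the range of the group. This was 1 of 36 groups of 4 libraries examined, and chance flags about 1 group in 20.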

How the results depend on the processing

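No member was called between genotypes in the mean of the days under any setting tried, and at single days the sole exception was *Uchl1* at day 20 without WT_d20_2 (0 to 1 members over the fits that left out 1 library). Counts of all genes called moved more. With DESeq2 they were 901 at day 20, 749 at day 22, 40 at day 24, 153 at day 26, 1827 in the mean of the days, 273 for a KO effect that differs between days and 216 for an age effect that differs between genotypes. With each day fitted alone they were 5, 69 and 2104 at days 20, 22 and 26, and with the stage score as covariate 8, 85, 67 and 46 at the 4 days and 298 in the mean. Scaling by total counts gave 30 at day 26 and 0 for a KO effect that differs between days, and shifted the median of all genes between ages to -0.15 in the WT and -0.26 in the KO. Fits that left out 1 library gave 151 to 780 genes at day 20, 60 to 858 at day 22, 0 to 24 at day 24, 0 to 103 at day 26, 302 to 1737 in the mean, 0 to 140 and 0 to 326 for the tests of differing effects, 4724 to 7971 between ages in the WT and 5829 to 10147 in the KO.

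Between ages, 1 member (*Nanos3*) and 3338 genes were called in the WT with the 2 groups fitted alone. In the KO that setting added *Id4*, which rose (0.32, adjusted p = 0.0285), to the 4 that fell, and 7 members were called there under scaling by total counts. Leaving out 1 library gave 1 to 6 members in the WT and 2 to 6 in the KO. The median relative to Sertoli markers ranged from -0.26 to 0.27 in the WT and from -0.17 to 0.02 in the KO, and was 0.27 in the KO against peritubular markers. Same-numbered libraries did not deviate together at every day (correlations from -0.46 to 0.42), so the numbers were not taken to pair them. A replicate block gave 9 genes at day 24, 5 at day 26 and 3 members between ages in the WT (*Nanos3*, *Lin28a* and *Uchl1*), added *Nanos3* in the KO (-1.56, adjusted p = 0.00978), and turned *Etv5* in the WT to 0.11. Signs of values near 0 turned elsewhere too. With the stage score, *Etv5* was -0.0757 and *Uchl1* 0.0407 in the mean of the days. Over fits that left out 1 library, *Etv5* ranged from -0.34 to 0.17 between WT ages and from -0.0145 to 0.12 in the mean, *Id4* from -0.0742 to 0.35 between WT ages, and *Nanos3* from -0.054 to 0.15 and *Uchl1* from -0.084 to 0.0359 in the mean. The causes were not tested. Depth limits *Nanos2* and *Nanos3*.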
